A study of Homo sapiens with 13 samples.

Results

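The zinc-dependent histone deacetylases HDAC1 to HDAC10 were read through every array probe that carries one of these 10 gene names. The array held 17 such probes among its 34127 non-control probes. Of these, 8 probes belong to the 4 class I genes (HDAC1, HDAC2, HDAC3 and HDAC8), 6 to the 4 class IIa genes (HDAC4, HDAC5, HDAC7 and HDAC9) and 3 to the 2 class IIb genes (HDAC6 and HDAC10). All 10 names are current symbols in RefSeq. HDAC8 has 4 probes, HDAC2, HDAC6, HDAC7 and HDAC9 have 2 each, and the other genes have 1 each.

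The cells were CCRF-CEM, established from a human acute lymphoblastic leukemia of the T lineage, as the parental line (CEM PA) and as a resistant population (CEM RES) obtained by raising the FK866 concentration step by step. FK866 blocks NAMPT, the enzyme with which cells recycle nicotinamide into NAD+. Total RNA was measured for mock-treated CEM PA (n = 3 arrays), CEM PA with 5 nM FK866 for 48 h (n = 2), mock-treated CEM RES (n = 4) and CEM RES with the same dose and time (n = 4), and the labels call the replicates biological. Mock treatment was DMSO. The CEM RES cells tolerated 100 nM FK866 and, by the study's Methods, were maintained in the drug, so mock-treated CEM RES cannot be taken as cells that had never met it, and 5 nM lay well under the dose they tolerated. The labels describe 1 resistant population, and nothing in the labels separates the effect of resistance from other differences between both lines.

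Histone deacetylases remove acetyl groups from lysine side chains of histones and of many other proteins. The enzymes described here use a zinc ion in the active site, whereas the sirtuins consume NAD+ for the same reaction. Class I enzymes are mostly nuclear subunits of repressor complexes. HDAC1 and HDAC2 are the catalytic pair of NuRD, SIN3, CoREST and MiDAC, HDAC3 is the catalytic subunit of the NCoR complex, and HDAC8 acts outside these complexes, with the cohesin subunit SMC3 among its substrates. Class IIa enzymes have little deacetylase activity of their own, bind MEF2 transcription factors, and leave the nucleus when kinases phosphorylate the sites that 14-3-3 proteins recognise. HDAC6 is a cytoplasmic deacetylase of tubulin, and HDAC10 is known as a polyamine deacetylase. In the T lineage HDAC7 is abundant in developing thymocytes.

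The 60-base probes that carry the results are given here by their last 30 bases (positions 31 to 60, 5′ to 3′, in the sense of the transcript), with the place of the whole probe in hg19 as the array files state it. They are shown because several genes gave different results at different places along the transcript. Capitals mark AATAAA, the usual polyadenylation signal. It was searched on the strand of the transcript, was found in 1 of the 17 probes, and occurred in 7.67% of all 34127 probes.
HDAC3 A_33_P3309929, chr5:141000459-141000518, minus strand: ccactgtttttatccAATAAActaagtcgg
HDAC4 A_23_P210048, chr2:239970676-239970735, minus strand: tgtttccttttatctccttccacgggccag
HDAC5 A_24_P125283, chr17:42154164-42154223, minus strand: gatttcagttaagtattttgtaacccgtta
HDAC7 A_33_P3237664, chr12:48177976-48178035, minus strand, upstream: cccaggtaaatactggggctgcatgcagcg
HDAC7 A_23_P2582, chr12:48176756-48176815, minus strand, downstream: gactgagggggaaggggtgggagagaagat
HDAC2 A_23_P122304, chr6:114262195-114262873, minus strand, upstream: tgaatttgacagtctcaccaatttcagaaa
HDAC2 A_33_P3309924, chr6:114257344-114257403, minus strand, downstream: aacagattctttttgaatgcaatattggat
HDAC6 A_33_P3320619, chrX:48664784-48664843, plus strand, upstream: gaatgagggagaactccgtgtcctagcaga
HDAC6 A_23_P250455, chrX:48683060-48683119, plus strand, downstream: tgtaccttggatgaggggtagcctcccact
Probes whose genomic span exceeds 60 bases lie across a splice junction, as does the upstream HDAC2 probe (span 679 bases). Exon and UTR labels for hg19 were not used here.

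Values are log2 signals after quantile normalization over the 13 arrays. The test covered the 22751 probes that stood well above background throughout 1 group or more, in a limma model of all 4 groups. Called means a Benjamini-Hochberg adjusted p under 0.05 over all 22751 probes. Beside it stands the study's double threshold, an unadjusted p under 0.05 with an absolute log2 fold change over 0.75. A signal compares arrays for the same probe, and no level was compared between probes.

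Of 43118 non-control spots, 26457 to 33239 per array were well above background and 0 were saturated. Replicate arrays correlated with r from 0.977 to 0.991 across probes. All 13 T-lineage markers were well above background on all 13 arrays, with a log2 summed signal from 17.37 to 17.57 in CEM PA and from 17.63 to 17.75 in CEM RES. Of the B-lineage markers, 3 of 6 were also above background on all arrays, and the summed B-lineage signal was 11.82 to 12.01 in CEM PA and 10.83 to 11.81 in CEM RES. Of the myeloid markers, CD14 and ITGAM were above background on all 13 arrays, CSF1R on 7 and ELANE on 5. MPO and CD33 were above background on 1 array each. The summed myeloid signal was 6.85 to 7.30 in CEM PA and 7.02 to 7.79 in CEM RES. Of 5 epithelial markers, KRT8 and KRT18 were above background on all 13 arrays, KRT19 on 8, and EPCAM and CDH1 on 0. The summed epithelial signal was 10.44 to 10.98 in CEM PA and 10.27 to 10.98 in CEM RES. The part of these marker differences in the results below was not tested. CEM PA and CEM RES arrays lay on different slides and in different scan sessions, so line and session cannot be told apart.

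Of the 17 HDAC probes, 15 were well above background on all 13 arrays. The exceptions were both probes of HDAC9 (A_23_P404162 and A_24_P206317), a class IIa enzyme best known from heart and brain, which were above background on 0 arrays and were not tested. Their log2 signals ranged from 0.85 to 2.46. HDAC1, HDAC2 (A_23_P122304) and HDAC3 gave log2 signals from 13.04 to 15.14 on all arrays.

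**Figure D1:**
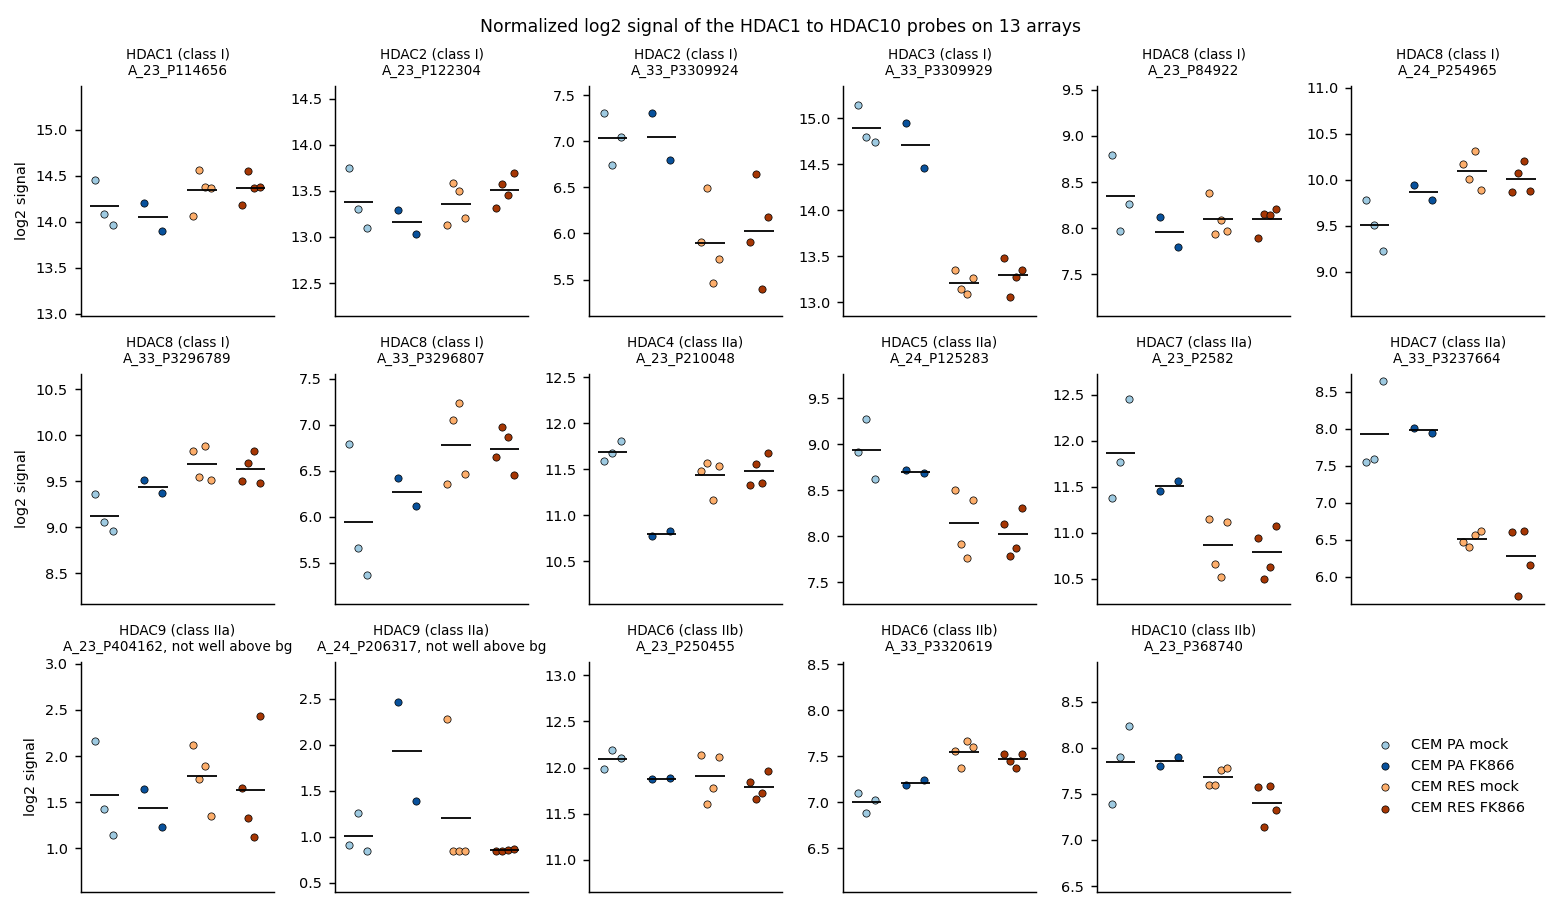
Normalized log2 signal (y axis, 1 panel a probe, each axis with its own range) of the 17 HDAC probes on 13 arrays. Points are arrays, black bars group means, and colours the 4 groups. HDAC3 is lower in every CEM RES array than in every CEM PA array, and HDAC4 is lowest in the 2 CEM PA arrays with FK866.

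The question of the first comparison was which deacetylases responded to 48 h of NAMPT inhibition in the sensitive line. In CEM PA only HDAC4 was called, and it fell. HDAC4 is the class IIa member that shuttles between nucleus and cytoplasm and carries HDAC3-containing NCoR to MEF2 target genes. Its log2 signal was 11.59, 11.67 and 11.81 in mock-treated cells and 10.77 and 10.83 with FK866. Both treated arrays lay below all 3 mock arrays, and the gap between the groups was larger than either group's range. The log2 fold change was −0.89 (SE 0.18, 95% interval −1.27 to −0.51, adjusted p = 0.0288 in limma), which leaves 53.9% of the mock signal. In RNA pooled over a culture, fewer cells with HDAC4 RNA and less of it per cell cannot be told apart. HDAC4 has 1 probe, so no other place along its transcript was measured. HDAC4 was also the only one of the 15 past the double threshold. Over all probes 1.53% were called, 0.418% as lower, and 6.69% passed the double threshold. The call rests on few arrays: the fold change stayed between −0.95 and −0.83, but the adjusted p rose to 0.221 without replicate 1 of the FK866-exposed CEM PA and to between 0.0537 and 0.154 without each of the other 4 CEM PA arrays. In scan session 1, with 1 array a group, the FK866 array lay 0.82 below the mock array on the log2 scale, and in session 2 it lay 0.91 below the mean of 2 mock arrays.

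The other 14 probes in CEM PA had log2 fold changes from −0.38 to 0.36 and adjusted p values of 0.464 or more in limma. Of the 15, 7 were above and 8 below 0, with a median of −0.12 against −0.00302 over all probes. The groups did not overlap for 4 of them, against 34.8% of all probes. Beside HDAC4 these were both HDAC6 probes, at −0.22 and 0.21, and the HDAC8 probe A_33_P3296789, at 0.32. HDAC3 was at −0.19 (95% interval −0.62 to 0.24), and HDAC1 at −0.12 (−0.56 to 0.32).

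In CEM RES 0 of the 15 probes were called for FK866 against mock, and 0% of all probes were, while 1171 of all probes had an unadjusted p under 0.05. The log2 fold changes ran from −0.28 to 0.16. HDAC4 was at 11.49, 11.57, 11.16 and 11.53 in mock-treated cells and at 11.33, 11.56, 11.35 and 11.67 with FK866. The groups overlapped, with a log2 fold change of 0.04 (95% interval −0.25 to 0.34). HDAC10 (A_23_P368740) was the 1 probe of 15 whose groups did not overlap, against 2.91% of all probes. It read 7.59, 7.60, 7.76 and 7.79 in mock-treated cells and 7.58, 7.14, 7.58 and 7.32 with FK866, and its log2 fold change of −0.28 had an adjusted p of 0.950 in limma.

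The difference between both responses of HDAC4 (CEM RES minus CEM PA) was 0.93 on the log2 scale (SE 0.22, 95% interval 0.45 to 1.42). Its unadjusted p was 0.00115 and its adjusted p 0.104 in limma's moderated test, so it was not called, although it passed the double threshold as 8.03% of all probes did. With array quality weights the adjusted p was 0.0428. For this difference 0.413% of all probes were called, and 0 of the 15 HDAC probes, of which 1 had an unadjusted p under 0.05.

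**Figure D2:**
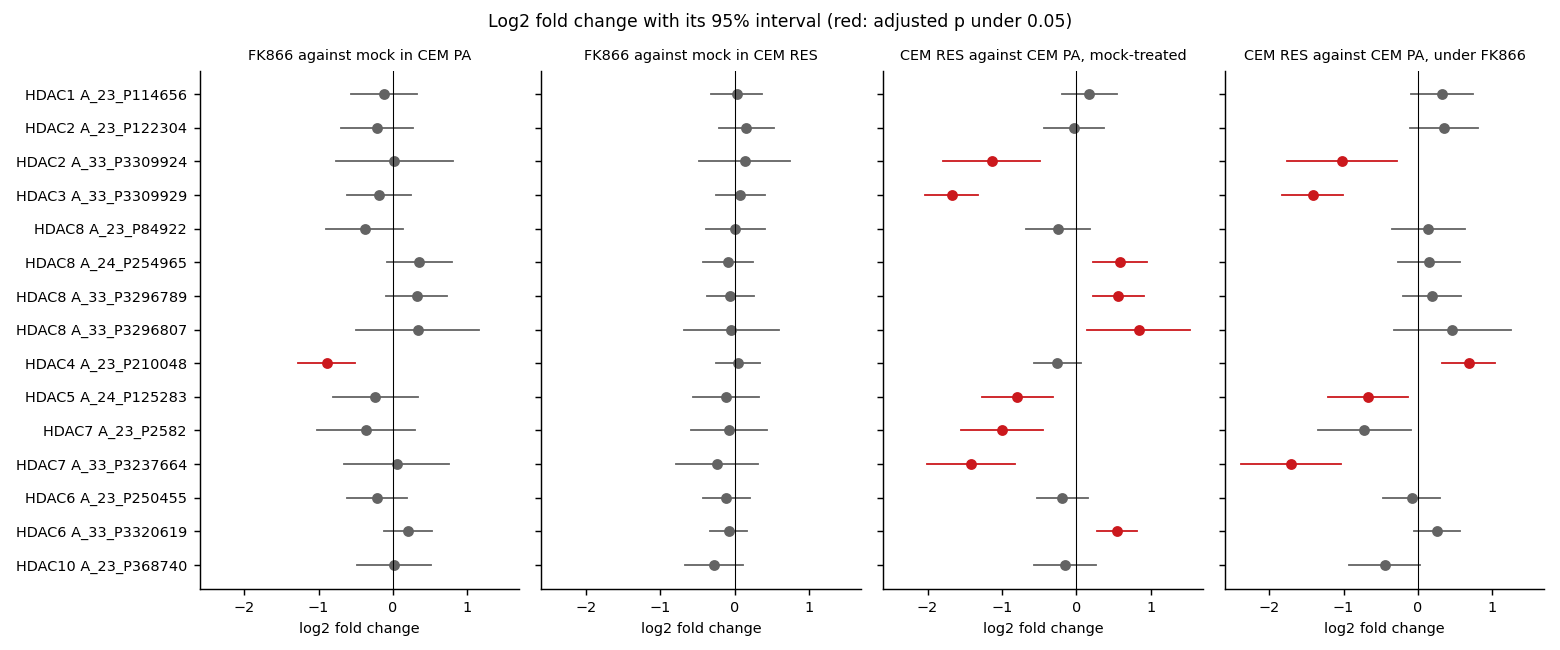
Log2 fold change (x axis) of the 15 tested HDAC probes with 95% intervals, 1 panel a comparison, with called probes in red. FK866 against mock has 1 red probe in CEM PA and 0 in CEM RES, and CEM RES against CEM PA has 9 and 5.

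The second question was how the deacetylases differ between resistant and parental cells. Both comparisons of the lines share arrays with the comparisons above and rest on separate scan sessions. In mock-treated cells 9 of 15 probes were called, 4 higher and 5 lower in CEM RES, against 47.6% of all probes (24.9% higher and 22.7% lower). The double threshold passed 6 of 15 against 35.6%, and the groups did not overlap for 9 of 15 against 48.8%. The count of HDAC probes was thus near the share of all probes. Under FK866 5 of 15 were called, 1 higher and 4 lower, against 36% of all probes (18% in each direction). The groups did not overlap for 10 of 15 under FK866, against 57.8% of all probes.

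HDAC3, the catalytic subunit of NCoR, had the largest log2 difference of the class I probes. Its log2 signal was 15.14, 14.79 and 14.74 in mock-treated CEM PA, against 13.36, 13.15, 13.09 and 13.26 in mock-treated CEM RES. With FK866 it was 14.94 and 14.46 in CEM PA, against 13.48, 13.06, 13.27 and 13.35 in CEM RES. Every CEM RES array lay below every CEM PA array, whether treated or not, and the ranges were nearly a log2 unit apart. The log2 fold change was −1.68 in mock-treated cells (SE 0.17, adjusted p = 1.4e-05 in limma), 31.2% of the parental signal, and −1.41 under FK866 (SE 0.19, adjusted p = 0.000204). Under every alternative in either treatment HDAC3 was called as lower, with an adjusted p of at most 0.0081. The lines share no slide or scan session, so no alternative could separate line from session. HDAC3 has 1 probe, the one that holds the AATAAA printed above, so no other place along this transcript was measured.

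HDAC1, the class I enzyme that pairs with HDAC2, is read by 1 probe, A_23_P114656, that is spotted 10 times. It was 14.17 ± 0.26 (SD, n = 3) in mock-treated CEM PA and 14.34 ± 0.20 (SD, n = 4) in mock-treated CEM RES. The SD of its spots within an array was 0.05 to 0.117, below the SD between arrays. The log2 fold change between the lines was 0.17 (95% interval −0.20 to 0.54) in mock-treated cells and 0.32 (−0.10 to 0.74) under FK866.

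The 2 HDAC2 probes gave different results. The upstream probe A_23_P122304, also spotted 10 times, read 13.75, 13.30 and 13.10 in mock-treated CEM PA and, in mock-treated CEM RES, 13.13, 13.59, 13.50 and 13.21. The groups overlapped, with a log2 fold change of −0.03 (95% interval −0.43 to 0.37). Under FK866 the groups of this probe did not overlap. It was at 0.35 (95% interval −0.11 to 0.80) and was not called (adjusted p = 0.219 in limma). The downstream probe A_33_P3309924 had 4791 bases of genome between it and the upstream probe. It read 7.31, 6.75 and 7.05 in mock-treated CEM PA, against 5.90, 6.50, 5.47 and 5.72 in mock-treated CEM RES. All 4 CEM RES arrays were lower, with a log2 fold change of −1.14 (SE 0.30, adjusted p = 0.00828), and under FK866 it was −1.02 (adjusted p = 0.0347). The call under FK866 was lost under 7 of 23 alternatives. The size of the difference depended on the processing. Over the alternatives the probe's log2 fold change ran from −1.34 to −0.48 in mock-treated cells and from −1.26 to −0.52 under FK866. With an array left out it stayed between −1.34 and −0.99 in mock-treated cells. Without replicate 1 of FK866-exposed CEM PA the probe was at −0.76 with an adjusted p of 0.276.

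HDAC8, the deacetylase of cohesin, was read by 4 probes, and 3 of them were called as higher in mock-treated CEM RES. A_24_P254965 read 9.78, 9.51 and 9.22 in mock-treated CEM PA, against 10.18, 10.01, 10.32 and 9.88 in mock-treated CEM RES, a log2 fold change of 0.59 (SE 0.17, adjusted p = 0.0121). A_33_P3296789, which the array assigns to transcript variant 5, read 9.36, 9.06 and 8.96 against 9.83, 9.55, 9.88 and 9.51, a log2 fold change of 0.57 (SE 0.16, adjusted p = 0.0109). For both probes all CEM RES arrays lay above all CEM PA arrays.
The third, A_33_P3296807 (variant 3), was 0.84 higher with overlapping groups, and it lost the call under 17 of 23 alternatives. Without replicate 3 of mock-treated CEM PA it was at 0.55 with an adjusted p of 0.201, beside 0.0462 with all arrays. The most downstream probe, A_23_P84922, which spans 110225 bases of the genome across a splice junction, was at −0.25 (95% interval −0.68 to 0.18). Without replicate 3 of mock-treated CEM PA, A_24_P254965 was at 0.45 with an adjusted p of 0.0590. Under FK866 0 of the 4 HDAC8 probes were called, at log2 fold changes of 0.14 to 0.46, and the change between mock and FK866 in this difference was not called for any of them (adjusted p of 0.516 or more).

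Among class IIa, HDAC7 was lower in CEM RES at both of its probes. HDAC7 is the class IIa enzyme of the thymus named above. Its downstream probe A_23_P2582 read 11.38, 11.77 and 12.45 in mock-treated CEM PA, against 11.15, 10.66, 10.52 and 11.12 in mock-treated CEM RES. Its upstream probe A_33_P3237664 read 7.55, 7.59 and 8.64 in CEM PA, against 6.47, 6.40, 6.57 and 6.62 in CEM RES. Both probes separated the lines completely, and both were highest in replicate 3 of mock-treated CEM PA. The log2 fold changes were −1.01 (SE 0.25, adjusted p = 0.00625) and −1.42 (SE 0.27, adjusted p = 0.00121), or 49.8% and 37.4% of the parental signal. Without that replicate they were −0.71 and −1.06, and both were still called.
Under FK866 the upstream probe was at −1.70 (adjusted p = 0.00138), and the downstream probe at −0.72 with an adjusted p of 0.0683, which fell to 0.0207 with array quality weights.

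HDAC5, a class IIa enzyme that like HDAC4 binds MEF2, was lower in mock-treated CEM RES. It was read by 1 probe, so no other place along its transcript was measured. The 3 CEM PA arrays read 8.91, 9.27 and 8.63 and the 4 CEM RES arrays 8.50, 7.92, 7.76 and 8.39. The groups did not overlap, although the nearest arrays were 8.63 and 8.50. The log2 fold change was −0.80 (SE 0.22, adjusted p = 0.0101), 57.6% of the parental signal. Without replicate 2 of mock-treated CEM PA its adjusted p was 0.0524. Under FK866 HDAC5 was at −0.68 with an adjusted p of 0.0498, just inside the threshold, and it lost the call under 12 of 24 alternatives, with adjusted p values up to 0.211.

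Between the lines HDAC4 was called under FK866 and not in mock-treated cells. Under FK866 it was higher in CEM RES by 0.68 on the log2 scale (SE 0.17, adjusted p = 0.00763). All 4 CEM RES arrays lay above both CEM PA arrays, and those 2 arrays are the ones in which HDAC4 was low in the first comparison. Without replicate 1 of FK866-exposed CEM PA the adjusted p was 0.0737. In mock-treated cells the groups did not overlap either, but in the other direction, with a log2 fold change of −0.25 (95% interval −0.57 to 0.07) and an adjusted p of 0.174. For HDAC4 the call under FK866 and its absence in mock-treated cells differ by the same difference between responses that was tested above (adjusted p = 0.104).

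The class IIb probes split again. HDAC6, the tubulin deacetylase, read 7.1, 6.89 and 7.02 in mock-treated CEM PA, against 7.56, 7.37, 7.67 and 7.60 in mock-treated CEM RES at its upstream probe A_33_P3320619. All 4 CEM RES arrays were higher, with a log2 fold change of 0.55 (SE 0.12, adjusted p = 0.00345). At the downstream probe A_23_P250455 it read 11.98, 12.19 and 12.11 against 12.13, 11.61, 11.77 and 12.11, a log2 fold change of −0.19 (95% interval −0.53 to 0.15). Under FK866 neither HDAC6 probe was called. The upstream probe was then at 0.26 (95% interval −0.05 to 0.56, adjusted p = 0.175 in limma). The downstream probe was at −0.08 (−0.47 to 0.30, adjusted p = 0.741). HDAC10, the polyamine deacetylase, was at −0.16 (95% interval −0.58 to 0.26) in mock-treated cells and at −0.45 (−0.92 to 0.03) under FK866, where its adjusted p was 0.129.

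Whether 2 probes of a gene differed between the lines was tested on the difference between them on each array, after their values had been seen. For each of 9 pairs the 5 CEM PA arrays were set against the 8 CEM RES arrays, mock and FK866 together, in a two-sided exact permutation test, whose smallest possible p is 0.00155. The downstream minus the upstream HDAC2 probe was 1.22 lower in CEM RES on the log2 scale (exact p = 0.00155, adjusted over the 9 pairs p = 0.00699). For HDAC6 the same difference was lower by 0.58 (exact p = 0.00155, adjusted p = 0.00699), and in both genes all 8 CEM RES arrays lay below all 5 CEM PA arrays. For HDAC7 it was 0.66 higher in CEM RES with overlapping arrays (exact p = 0.00777, adjusted p = 0.0233).
For HDAC8 the most downstream probe was lower in CEM RES relative to each of the other 3, by 0.50, 0.50 and 0.78 on the log2 scale (exact p = 0.0171, 0.0280 and 0.0155, adjusted p = 0.0308, 0.0420 and 0.0308). The other 3 pairs of HDAC8 probes did not pass, at differences of −0.01 to 0.28 and adjusted exact p values of 0.164 or more. The permutation did not keep treatment apart, and it counted same-numbered mock and FK866 arrays as separate although they deviated together. In an alternative added after seeing the data, with 1 value per replicate number (the mean of its arrays), 3 CEM PA values against 4 CEM RES values cannot give a two-sided exact p below 0.0571, so no pair could pass. The 6 pairs with an adjusted p under 0.05 above were each at that smallest p. Line and scan session cannot be told apart here either.

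With mock and FK866 arrays together, the most downstream probe was thus lower in CEM RES relative to the most upstream one in 3 genes. These were HDAC2, HDAC6 and HDAC8 of the 4 genes with several tested probes, and in HDAC7 it was higher. The same reading was taken of all 3969 genes with at least 2 tested probes at places 60 bases or more apart on 1 strand. There mock and FK866 were kept apart. In mock-treated cells the difference in log2 fold change (most downstream minus most upstream probe) had a median of −0.27 over these genes, and it was below 0 in 62.3% of them. Under FK866 the median was 0.04, and 48.2% were below 0. The 4 HDAC genes were at −1.11 (HDAC2), −0.73 (HDAC6), −0.82 (HDAC8) and 0.41 (HDAC7) in mock-treated cells, and at −1.37, −0.34, −0.05 and 0.98 under FK866. All 4 mock values lay between the 10th and 90th percentiles of all these genes, −1.78 and 0.91. Under FK866 those percentiles were −1.29 and 1.29, HDAC2 lay below the lower one, and the other 3 genes lay between them. A difference between upstream and downstream probes was therefore common on these arrays in mock-treated cells, and its part in the results of single HDAC probes was not tested.

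**Figure D3:**
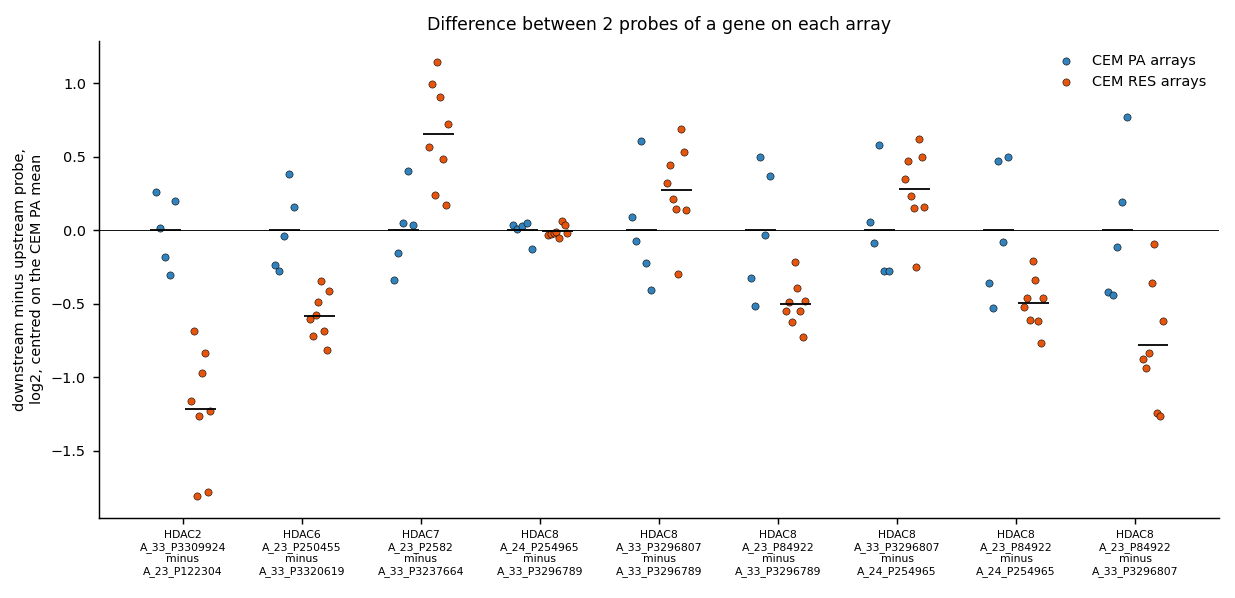
Log2 signal of the downstream minus the upstream probe of the same gene on each array (y axis), centred on the mean of the CEM PA arrays, for 9 pairs (x axis). Blue points are the 5 CEM PA arrays, orange points the 8 CEM RES arrays, and bars their means. HDAC2 and HDAC6 separate the lines completely, while the first HDAC8 pair moves together to within a difference of −0.01.

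The partners through which these enzymes act were read from 9 lists of 70 genes, each gene through its brightest tested probe in the same fit. Of 68 tested genes, 0 were called for FK866 against mock in either line, where 0.983% of all genes were called in CEM PA and 0% in CEM RES. In CEM PA RCOR2 alone of the 68 passed the double threshold, as 6.69% of all probes did. Its log2 fold change there was −1.41 (adjusted p = 0.234 in limma). In mock-treated CEM RES against CEM PA 15 of the 68 were higher and 26 lower, against 47.4% of all genes (24.6% higher and 22.8% lower). The 26 include TPPP, which passed the filter only through FK866-exposed CEM PA. The median log2 fold change of the 68 was −0.28, beside 0.04 over all genes. Under FK866 8 were higher and 20 lower, against 35.4% of all genes (18.5% higher and 16.8% lower). Their median was then −0.097 for the 68 tested genes, beside 0.088 over all genes.

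HDAC11, the only class IV enzyme, was at −2.24 in mock-treated CEM RES on the log2 scale (SE 0.34, adjusted p = 0.000244) and at −1.27 under FK866 (SE 0.38, adjusted p = 0.022). For HDAC3, the NCoR list had 3 genes higher and 1 lower of 6 in mock-treated cells, against 24.6% and 22.8% of all genes. TBL1XR1, a WD40 subunit that recruits ubiquitin ligase activity, rose by 2.01 (SE 0.19), the subunit GPS2 by 0.90 and the co-repressor NCOR1 by 0.67, whereas CORO2A fell by 2.42 (SE 0.41). In mock-treated CEM RES HDAC3 was thus lower, while 3 genes of this list were higher and CORO2A was lower. Under FK866 the list had 1 gene higher and 1 lower of 6, against 18.5% and 16.8% of all genes. There TBL1XR1 was at 1.79, CORO2A at −2.24 and NCOR1 at −0.05, the last with an adjusted p of 0.890.

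Of the complexes built on HDAC1 and HDAC2, the list of NuRD, a nucleosome-remodelling repressor, had 5 of 11 genes higher and 1 lower in mock-treated CEM RES. Over all genes 24.6% were higher and 22.8% lower, and no list was tested against these shares. The subunits MTA2, GATAD2A and MTA1 were higher by 0.90, 0.73 and 0.59, and GATAD2B fell by 1.23. SIN3 had 0 higher and 5 lower of 12. The scaffold SIN3B fell by 1.31, SAP30 by 1.10 and the histone mark reader ING2 by 0.60, while the other scaffold, SIN3A, was at 0.22 with an adjusted p of 0.475.
CoREST, which joins HDAC1 and HDAC2 to the demethylase KDM1A, had 0 higher and 4 lower of 8. RCOR2 fell by 3.53 (SE 0.44), PHF21A by 1.05 and HMG20B by 1.03. MiDAC had both of its genes higher, with MIDEAS (C14orf43 on the array) at 0.59 and DNTTIP1 at 0.44. The enzymes' own probes stood at 0.17 for HDAC1 and at −0.03 and −1.14 for HDAC2. Under FK866 NuRD had 1 gene higher and 2 lower, SIN3 had 0 and 2, CoREST 0 and 3, and MiDAC 2 and 0. Of all genes 18.5% were higher and 16.8% lower under FK866. There PHF21A was at −0.01 (adjusted p = 0.980) and SAP30 at −0.62 (adjusted p = 0.0975).

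For class IIa, the MEF2 factors had 0 genes higher and 2 lower of 4 in mock-treated CEM RES. Over all genes 24.6% were higher and 22.8% lower. MEF2D fell by 1.91 (SE 0.24) and MEF2A by 1.40 (SE 0.17), beside the lower HDAC5 and HDAC7. Of 11 tested kinases that phosphorylate class IIa enzymes or activate those kinases, 2 were higher and 6 lower. The salt-inducible kinase SIK3 fell by 1.78, the protein kinase D member PRKD3 by 1.28, and STK11, the upstream activator of the SIK family, by 1.18, whereas the calcium-dependent CAMK4 and CAMK2D were higher by 0.56 and 0.38. The 14-3-3 list had 3 genes higher (YWHAB, YWHAH and YWHAQ, by 0.77, 0.61 and 0.58) and 2 lower (SFN and YWHAG, at −0.78 and −0.41) of 7.
Under FK866 MEF2D was at −1.70 and MEF2A at −1.02. The kinase list then had 1 higher and 5 lower, against 18.5% and 16.8% of all genes.

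Of the 7 genes around HDAC6, 0 were higher and 5 lower in mock-treated CEM RES, against 24.6% and 22.8% of all genes. Cortactin (CTTN), an actin-binding substrate of HDAC6, fell by 3.24 (SE 0.41). TPPP, a tubulin polymerisation protein that binds HDAC6, was not well above background in mock-treated CEM RES and was at least 1.71-fold lower there. It passed the filter only through FK866-exposed CEM PA, in the line where it is higher, so its place among the 5 lower genes supports nothing. CYLD fell by 1.20, the ubiquitin receptor SQSTM1 by 0.83, and ATAT1, the tubulin acetyltransferase opposed to HDAC6, by 0.73. The list was chosen with results of these arrays known, as were all others, so its direction is a description.

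**Figure D4:**
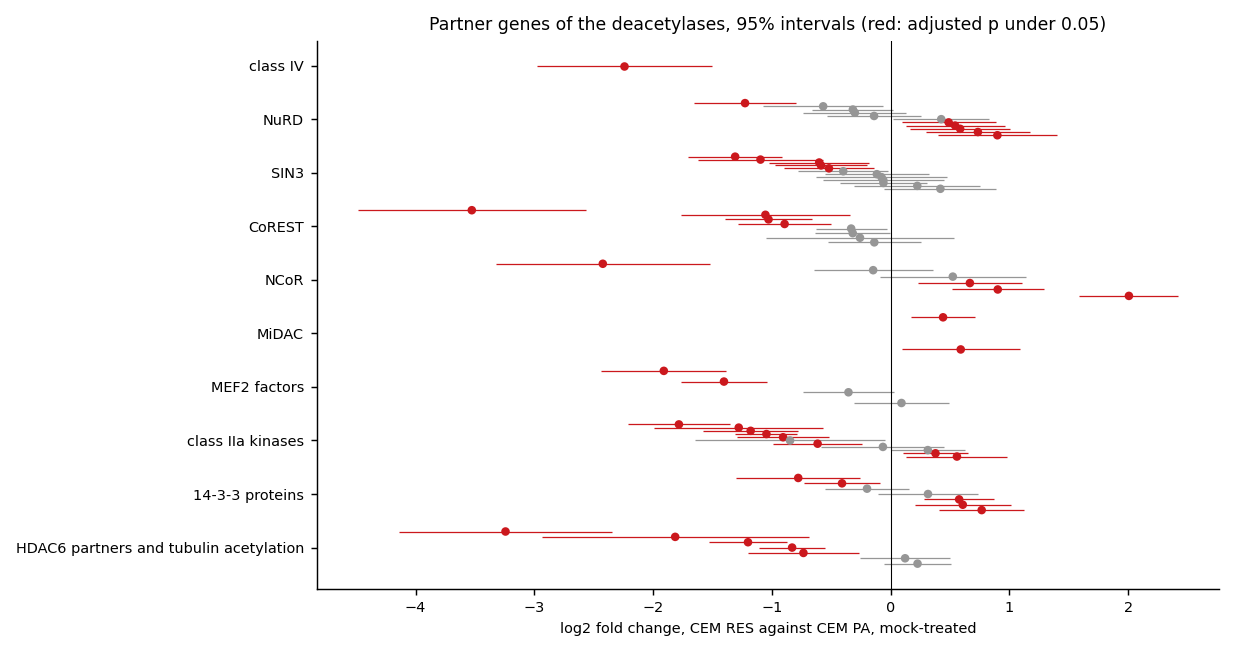
Log2 fold change of mock-treated CEM RES against CEM PA (x axis) for HDAC11 (class IV) and the 68 tested partner genes in 9 lists (y axis), with 95% intervals. Called genes are red. CoREST, SIN3, MEF2 and HDAC6 partners have called genes only to the left of 0, and MiDAC only to the right. Among the HDAC6 partners TPPP passed the filter only through FK866-exposed CEM PA. Over all genes 24.6% were called as higher and 22.8% as lower.

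Across the 13 arrays the genes most like HDAC4 were ZFYVE26 (r = 0.926) and ZNF655 (r = 0.923), each read through its brightest probe. Those most like HDAC3 were SPARC and MPP1, both with r = 0.993, those most like HDAC5 were GPC1 (r = 0.968) and ARHGAP25 (r = 0.964), and the one most like HDAC7 with a gene symbol was SKAP1 (r = 0.978), an adaptor of T cells. Within the 8 CEM RES arrays the correlations were 0.787 and 0.701 for HDAC4, 0.908 and 0.739 for HDAC3, 0.945 and 0.924 for HDAC5 and 0.965 for HDAC7 with SKAP1. The arrays share their slides and normalization, so these values only describe likeness.

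The plot of adjusted p values shows which of these calls depended on a setting. HDAC3 in both comparisons of the lines, the upstream HDAC7 probe in both, and HDAC2 (A_33_P3309924), the downstream HDAC7 probe, HDAC8 (A_33_P3296789) and HDAC6 (A_33_P3320619) in mock-treated cells were called under every alternative that gave a value. The other calls were lost under at least 1.

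**Figure D5:**
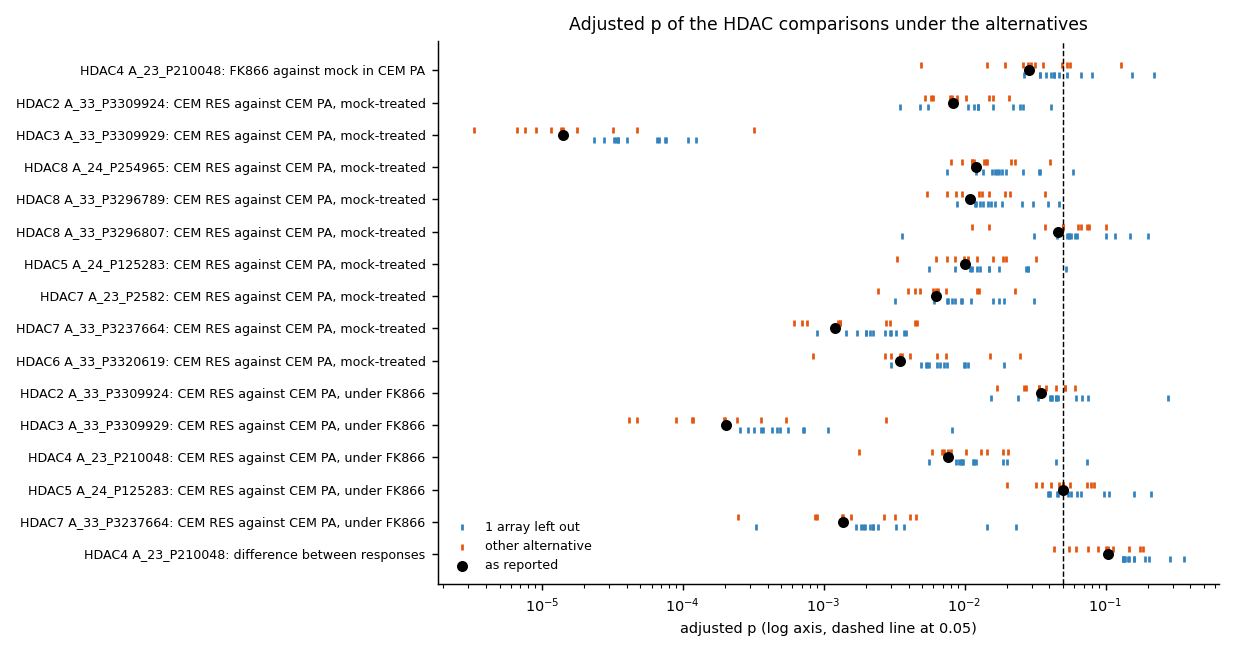
Adjusted p (x axis, log scale, dashed line at 0.05) of the 15 called HDAC comparisons and of the difference between the HDAC4 responses (y axis). Black points are the values as reported, blue marks fits with 1 array left out, and orange marks other alternatives. HDAC3 stays left of 0.01 throughout, and HDAC4 in CEM PA crosses the line.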

How the data were processed

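The authors deposited 1 Feature Extraction text file per 1-colour array (Agilent Feature Extraction 10.7.7.1 per the labels) with the background-corrected, detrended intensity of each spot, before any normalization across arrays. A second deposited file holds log2 values after quantile normalization and served as an alternative. Arrays give no counts, so their number limits the precision.

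Intensities were put on the log2 scale, outlier-flagged spots set to missing, control spots removed, arrays quantile normalized and spots of a probe averaged. Kept were probes well above background throughout 1 group or more (22751 of 34127 probes, 17594 gene names, of which 32 probes had a missing value). Every kept probe was a feature of 1 limma model (limma 3.58.1, R 4.3.3, prior degrees of freedom 3.25) of the 4 groups, with two-sided moderated tests. Exact permutation tests used scipy 1.17.1. The fit was also run on simulated data in which arrays varied independently, so effects of slide, scan session or replicate number were not covered by it. Intervals of fold changes are limma's 95% intervals.

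Every HDAC probe is named, with up to 3 called genes per direction of each partner list, HDAC11, and the 2 genes most like each HDAC gene, of which some are left out here. SIN3A, SQSTM1 and ATAT1 were added after their values were seen. The members and lists were chosen with earlier results of these data known. Marker LYZ was not analysed here, and some genes of the lists are not reported by name.

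The alternatives tried were 75th percentile scaling, background correction by normexp with offset 50, no filter, a filter on all 13 arrays, outlier spots kept, 1 probe per gene, the deposited log2 table, only the compared groups, blocks for slide, scan session or replicate number, array quality weights and each array left out. Where this left 1 array in a group, it was assumed to vary like the others. CEM PA and CEM RES share no slide or scan session, so no block separated line from session. Deviations of same-numbered mock and FK866 arrays correlated, with r = 0.46 and 0.353 for replicates 1 and 2 of CEM PA. For replicates 1 to 4 of CEM RES r was 0.199, 0.388, 0.474 and 0.29. In each line the pairs on a shared slide had the higher r (replicate 1 of CEM PA, 2 and 3 of CEM RES). Different-numbered arrays were not compared, so pairing by number was not tested, and no number links the lines.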

Additional observations from a re-analysis of the deposited data

Results flagged for a closer look

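One HDAC value stood apart from its group. HDAC9 probe A_24_P206317 read 2.28 on the log2 scale in replicate 1 of mock-treated CEM RES, while the other 3 arrays read about 0.85, and the gap was 0.997 of the group's range. The probe was not well above background on any array. Chance flags about 1 in 20 groups of samples, and 34 groups of 4 arrays were looked at. The other 3 values here lay close together and not above background, so that rate need not hold for this group.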

How the results depend on the processing

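Of the 1800 values of log2 fold changes under alternatives, 0 reversed a call, 47 lost one, 6 gained one and 57 uncalled values changed sign. The 1 HDAC probe called for FK866 against mock in CEM PA became 0 with 75th percentile scaling, with no filter and with only the compared groups fitted, and 0 to 1 with an array left out, 0 for each of the 5 CEM PA arrays. In CEM RES the count was 0 throughout. For mock-treated CEM RES against CEM PA, 9 became 4 with 1 probe per gene, of 9 tested, and 7 to 9 with an array left out. Under FK866, 5 became 3 with no filter, with 1 probe per gene and with scan session as a block, and 2 to 6 with an array left out. For the difference between responses 0 became 1 with array quality weights and stayed at 0 to 0 with an array left out. In the paired fit, which has the replicate block, the HDAC count in CEM PA was 1, while the calls over all probes went from 348 to 1218, and the HDAC count stayed at 0 in CEM RES and for the difference between responses. No paired fit of the lines was possible because no number links them. The 75th percentile scaling shifted the median of all probes between mock-treated lines from 0.04 to 0.17, and under FK866 from 0.06 to 0.20. Probe signal over background limited HDAC9.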
